A study of Mus musculus with 8 samples.

Results

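The late neutrophil genes have products in the secondary and tertiary granules, the cytosol or on the surface of neutrophils at later stages of maturation. The 10 described here are S100a8, S100a9, Ngp, Camp, Ltf, Lcn2, Mmp8, Retnlg, Chil3 and Ly6g. They were taken from the deposited table by symbol, after its mouse Ensembl identifiers had been mapped to symbols, with no cut on measured values, and the list was drawn up with earlier results of these data known. They make up 10 of the 50462 identifiers listed. All 10 had counts in every library. The libraries were made from medial knee cartilage caps of 8 male C57Bl/6J mice, each library from the RNA of an individual animal. The naive group held 4 mice that had no surgery and were 11 weeks old (day 0). The DMM group held 4 mice whose left knee had been operated on at 11 weeks, by cutting the ligament that ties the medial meniscus to the tibia, and that were 17 weeks old at collection (day 42, 6 weeks after surgery). The name DMM stands for destabilisation of the medial meniscus, and the operation models post-traumatic osteoarthritis in mice. All mice were wild type. No sham-operated mice were analysed here, so surgery and the 6 weeks of added age cannot be told apart in any value below. The labels name no batch or date.

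Neutrophils are short-lived white blood cells that are made in bone marrow and kill microbes with proteins stored in granules. The granules are filled in a fixed order as the cell matures. Azurophil (primary) granules are made first, at the promyelocyte stage, then secondary and tertiary granules, and finally the products of the segmented cell. The transcription factor C/EBPε is needed for the secondary granule stage. Healthy articular cartilage has no blood vessels and is not a site of neutrophil production, whereas the bone marrow under it is.

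The late neutrophil genes were lower in DMM than in naive libraries. Of the 10, 9 were called lower and 0 higher by DESeq2's Wald test across all genes, where a call needed a p, adjusted by the Benjamini-Hochberg method, of at most 0.05 together with at least a 1.5-fold change. Among the 17760 genes with an adjusted p, 5.92% were called lower, 7.75% higher and 13.7% in either direction. The log2 fold changes (DMM over naive) of the 10 genes ran from -0.97 for Camp to -0.58 for Mmp8, with a median of -0.81, against a median of -0.02 over all genes tested. Mmp8, the neutrophil collagenase, was the member not called. In bulk tissue such as this, fewer neutrophils and less of these RNAs per neutrophil cannot be told apart.

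The libraries held 12479442.5 to 16548001.6 estimated counts, so the members' values rest on between 90 counts (Ly6g) and 43934 counts (Ngp) per library. The gene with the most counts, an identifier without a symbol used here, held 10.1 to 17.9% of the counts in naive and 4.31 to 8.65% in DMM libraries. Acan, the main cartilage proteoglycan and a chondrocyte marker, was present in all libraries. Its normalised counts (counts divided by a DESeq2 size factor) were 5202.5 to 8260.3 in naive and 11597.8 to 16872.7 in DMM libraries. Of 13 chondrocyte markers tested, 6 were called higher in DMM and 0 lower. Among the 7 not called, Prg4 (log2 fold change -0.54), Col9a1 (-0.36) and Matn3 (-0.29) lay below 0. Col9a2, Col9a3, Hapln1 and Cnmd lay above 0. Matn1 had too few counts for an adjusted p and was at 0 in DMM 4. The part of the rise of the 6 markers in the lower share of neutrophil transcripts was not tested.

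In the GENCODE vM21 annotation of GRCm38, all 10 are protein-coding genes. S100a8 lies at chr3:90668978-90670035 (plus strand) and S100a9 at chr3:90692632-90695721 (minus strand), next to each other in the cluster of S100 genes. On chromosome 9 lie 4 members: Ngp at chr9:110419747-110423012, Camp at chr9:109847379-109849617, Ltf at chr9:111019271-111042767 and Mmp8 at chr9:7558456-7568485. Chil3 lies at chr3:106147554-106167564, Lcn2 at chr2:32384633-32388252, Retnlg at chr16:48872621-48874496 and Ly6g at chr15:75155240-75159126. Chil3 has close relatives: 41.5% of the 31-base words in its transcripts also occur in transcripts of other genes, mainly Chil4, so its counts depend on how Kallisto divided shared reads. The share was 9.55% for Ly6g (Ly6i, Ly6c2 and Ly6a), 5.51% for Retnlg (Retnla) and 0 for the other 7 genes.

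The sequences just upstream of S100a9, Chil3 and Mmp8 are shown. S100a9 and Chil3 were called lower in every fit that was run, whereas Mmp8 was the member not called. Ngp, Camp and Ltf were also called lower in every fit, but their upstream windows overlap exons and are not shown. Each sequence shown is the 250 bases before the transcription start in RefSeq (GRCm38.p6), read 5′ to 3′ on the gene's strand. None of those shown overlaps a GENCODE exon. S100a9 is at chr3:90695722-90695971 (minus strand), Chil3 at chr3:106167565-106167814 (minus strand) and Mmp8 at chr9:7558179-7558428 (plus strand). Capitals mark matches, on either strand, to the letters TTNNGNAA, a loose form of the motif bound by C/EBP factors.
S100a9: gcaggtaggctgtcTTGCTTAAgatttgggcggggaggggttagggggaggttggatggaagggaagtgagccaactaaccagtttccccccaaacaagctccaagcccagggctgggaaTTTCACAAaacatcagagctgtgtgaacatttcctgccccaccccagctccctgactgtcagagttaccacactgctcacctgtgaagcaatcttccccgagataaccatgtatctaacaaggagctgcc
Chil3: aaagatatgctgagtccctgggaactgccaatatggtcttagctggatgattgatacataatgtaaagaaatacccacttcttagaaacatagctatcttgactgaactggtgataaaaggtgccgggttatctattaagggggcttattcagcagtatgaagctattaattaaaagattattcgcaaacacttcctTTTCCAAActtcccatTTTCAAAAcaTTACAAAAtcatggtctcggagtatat
Mmp8: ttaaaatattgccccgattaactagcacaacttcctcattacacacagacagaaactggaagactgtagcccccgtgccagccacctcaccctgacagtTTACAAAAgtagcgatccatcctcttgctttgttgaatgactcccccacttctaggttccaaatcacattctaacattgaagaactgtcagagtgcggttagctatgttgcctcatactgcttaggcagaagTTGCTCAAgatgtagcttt

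This form of the C/EBP motif occurred upstream of 9 of the 10 genes, all but Camp, and in 90.9% of their 11 annotated upstream windows (Ly6g has 2 starts). It occurred in 36.8% of 32851 mouse windows of the same length. The windows of S100a8, Ngp, Camp, Ltf and Lcn2 and the 2 of Ly6g overlap GENCODE exons. The letters GAGGAA, a core bound by PU.1 and related factors (either strand), were found upstream of 5 members (S100a8, Ltf, Lcn2, Mmp8 and Ly6g) and in 54.5% of their windows against 23.3% of all. The TATA box letters TATAAA (gene strand) were found upstream of 2 members, S100a8 and Ly6g, in 27.3% of windows against 7.59% of all. They began at -30 from the start in S100a8 and at -99 and -167 from the 2 starts of Ly6g. The 2 Ly6g windows overlap, so the same TATAAA and GAGGAA sites of Ly6g are counted in each of them. These are matches of letters, and no binding was measured. The sequence upstream of Mmp8 held 2 C/EBP matches, as many as that of S100a9, and that of Chil3 held 3.

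S100a8 and S100a9 encode the subunits of calprotectin, the calcium- and zinc-binding protein that makes up much of the neutrophil cytosol and is released as an alarmin. S100a9 had normalised counts of 36922, 49057, 41109.7 and 29353 in naive libraries 1 to 4 and of 13368, 18199.6, 28403 and 27156 in DMM libraries 1 to 4. The groups did not overlap, but the highest DMM library lay just under the lowest naive one. The means were 39110.4 ± 8224.6 and 21781.8 ± 7219.1 (SD, n = 4 each), a 1.8-fold decrease with a log2 fold change of -0.84 (SE 0.23, adjusted p = 0.00244). S100a8 had 16732, 17973, 17729 and 13356 normalised counts in naive and 5220.5, 7646, 12954 and 12829 in DMM libraries. Its groups were also separate, with DMM 3 and DMM 4 just under naive 4. Its log2 fold change was -0.77 (SE 0.25, adjusted p = 0.012). The ratio of S100a8 to S100a9 counts stayed between 0.366 and 0.472 in the 8 libraries, with a mean of 0.426 ± 0.0416 in naive and 0.435 ± 0.0364 in DMM (SD, n = 4 each).

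**Figure D1:**
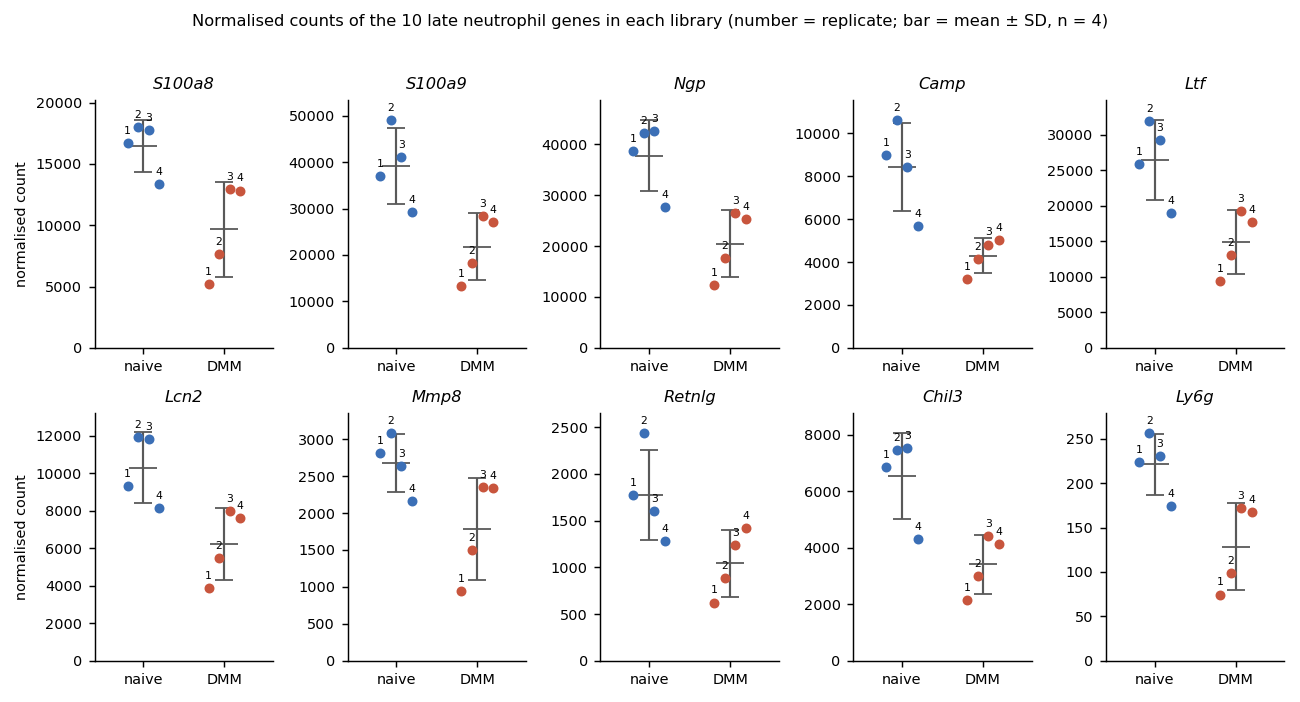
Normalised counts (y axis, linear from 0) of each of the 10 late neutrophil genes in the 4 naive and 4 DMM libraries, each point a mouse numbered by replicate, with the group mean ± SD. Naive 4 is the lowest naive library and DMM 1 the lowest DMM library in every panel.

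Ngp, Camp, Ltf and Lcn2 are genes of the secondary granules. Ngp, which encodes neutrophilic granule protein, had 38636, 42264, 42539.6 and 27631 normalised counts in naive and 12414, 17689, 26495 and 25365 in DMM libraries. The groups came close at naive 4 and DMM 3 but did not overlap. Ngp fell by 0.88 on the log2 scale (SE 0.22, adjusted p = 0.00111).

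Camp encodes cathelicidin, the precursor of the antimicrobial peptide CRAMP. It had 8991, 10628, 8409 and 5692 normalised counts in naive and 3197, 4156, 4816 and 5023 in DMM libraries, so every DMM library was below every naive one. Camp showed the largest change and the smallest adjusted p of the 10 genes, with a mean of 8430.1 ± 2053.0 in naive and 4297.8 ± 821.7 in DMM (SD, n = 4 each) and a log2 fold change of -0.97 (SE 0.20, adjusted p = 2.23e-05). The DMM libraries were closer together for Camp (highest over lowest 1.57) than the naive ones (1.87), and in the other 9 genes they were further apart.

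Ltf encodes lactoferrin, the iron-binding protein of secondary granules. Its normalised counts were 25853, 31929, 29208 and 18925 in naive and 9371, 13078, 19215 and 17730.1 in DMM libraries. DMM 3 was above naive 4, so the groups overlapped by that pair. Ltf fell by 0.83 (log2, SE 0.22, adjusted p = 0.00185).

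Lcn2 encodes lipocalin-2, which withholds iron from bacteria by binding their siderophores. It had 9297, 11917, 11799 and 8138 normalised counts in naive and 3878, 5464, 7983 and 7588 in DMM libraries. The groups did not overlap, and naive 4 and DMM 3 were next to each other in the order. Its log2 fold change was -0.72 (SE 0.22, adjusted p = 0.00638).

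Chil3 encodes the chitinase-like protein Ym1, which neutrophil precursors and activated macrophages make. It had 6843, 7458, 7537 and 4309 normalised counts in naive and 2148, 2991, 4414 and 4116 in DMM libraries. The groups overlapped at naive 4 and DMM 3. Chil3 fell by 0.94 (log2, SE 0.23, adjusted p = 0.000725), the second largest change of the group.

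Mmp8 encodes neutrophil collagenase, which is stored in granules and cleaves fibrillar collagen, including the type II collagen of cartilage. It had 2812, 3089, 2637 and 2161 normalised counts in naive and 948, 1499, 2354 and 2338 in DMM libraries. DMM 3 and DMM 4 were above naive 4 and within the spread of the naive libraries. The log2 fold change was -0.58 (SE 0.25, adjusted p = 0.0692), which missed both the p and the fold threshold.

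Retnlg encodes resistin-like gamma, a secreted protein of neutrophils. Its normalised counts were 1772, 2436, 1604 and 1284 in naive and 624, 890.1, 1237 and 1418 in DMM libraries. Here DMM 4, not DMM 3, was the library that lay above naive 4. The log2 fold change was -0.77 (SE 0.25, adjusted p = 0.0134).

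Ly6g encodes the surface antigen used to sort mouse neutrophils. It was the member with the fewest counts, at 223, 257, 231 and 175 normalised counts in naive and 74.6, 98.9, 172 and 168 in DMM libraries. The groups did not overlap, with DMM 3 just under naive 4. The log2 fold change was -0.78 (SE 0.26, adjusted p = 0.0171).

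Each of the 10 log2 fold changes was below 0 in all 16 fits that were run, which used 3 tests, other scalings and filters, the replicate number as a block, and each library left out in turn. S100a9, Ngp, Camp, Ltf and Chil3 were called lower in every one of them, and were the only members called by edgeR's quasi-likelihood test, with the total count as size factor, or without DMM 1. Lcn2 was called in 13 fits, S100a8 in 11, Retnlg and Ly6g in 9 each and Mmp8 in 4. Without naive 4, DMM 3 or DMM 4, all 10 were, Mmp8 included. The share of all genes called lower is given above for the main fit alone.

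**Figure D2:**
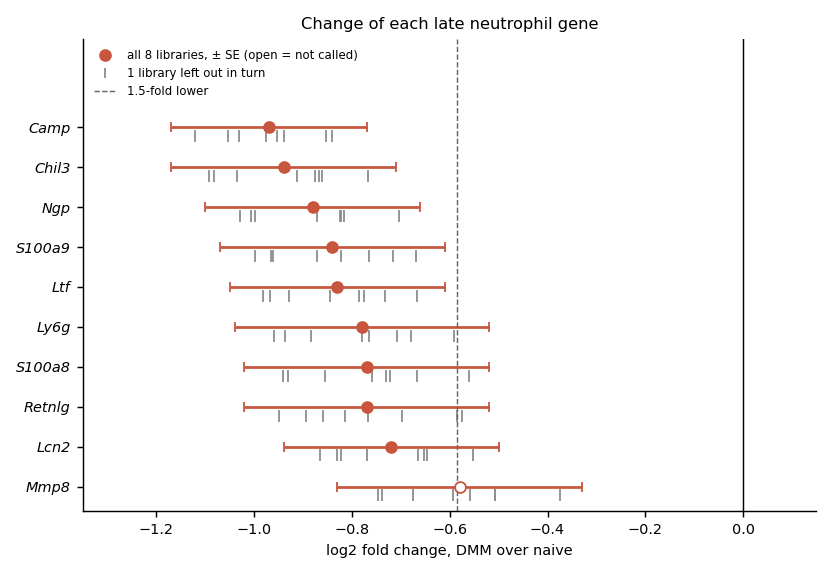
Log2 fold change (DMM over naive, x axis) of each late neutrophil gene with all 8 libraries ± SE (circles, open where not called) and with each library left out in turn (grey ticks), the dashed line marking a 1.5-fold decrease. All values lie below 0, from -0.97 for Camp to -0.58 for Mmp8 with all libraries.

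The order of the libraries was nearly the same for all 10 genes. DMM 1 was the lowest and DMM 2 the second lowest of the 8 libraries in 10 of 10 genes. Naive 4 was the lowest naive library in 10 of 10. The highest library was naive 2 for 8 genes and naive 3 for Ngp and Chil3. Within the DMM group, DMM 3 was the highest for 8 genes and DMM 4 for Camp and Retnlg. The 10 genes followed nearly the same profile over the libraries (Pearson r to their mean 0.957 to 0.997). They are therefore not 10 separate observations of an order, and the share of all genes with these orders is not given here. In 6 of the 10 genes (S100a8, S100a9, Ngp, Camp, Lcn2 and Ly6g) every DMM library was below every naive library, as was the case for 10.3% of all genes tested. Without naive 4 the groups were separate in all 10. Naive 4 was the lowest naive library for each, so leaving it out could only widen the gap. No share of all genes is given for that comparison, and nothing is concluded from it.

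Summed over the 10 genes, normalised counts were 148080.7, 177009.1, 162803.5 and 111021.5 in naive and 51242.6, 71711.5, 108043.2 and 103728.9 in DMM libraries. As a share of all estimated counts, which uses no size factor, the 10 genes held 1.04, 1.05, 1.13 and 0.771% in naive and 0.381, 0.535, 0.793 and 0.791% in DMM libraries. On that measure DMM 3 and DMM 4 were just above naive 4. Leaving the gene with the most counts out of the total gave 0.927 to 1.33% in naive and 0.417 to 0.85% in DMM libraries, which did not overlap.

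The makeup of the sum differed little between libraries. S100a9 gave 24.9 to 27.7% of the group's counts in the 8 libraries, Ngp 23.9 to 26.1%, Ltf 17.0 to 18.3% and S100a8 10.2 to 12.4%. Lcn2 gave 6.28 to 7.62%, Camp 4.46 to 6.24%, Chil3 3.88 to 4.63%, Mmp8 1.62 to 2.25%, Retnlg 0.985 to 1.38% and Ly6g 0.138 to 0.162%. To ask whether members changed unequally, the log2 ratio of each to S100a9 within a library was compared between the groups with an exact permutation test (two-sided, all 70 ways of assigning the libraries), adjusted over the 9 ratios. No ratio passed, and 0 of 9 had an unadjusted p under 0.05. The smallest p that this design allows is 0.0286. The largest difference was for Mmp8, whose log2 ratio was -3.86 ± 0.14 in naive mice and -3.64 ± 0.12 in DMM mice (SD, n = 4 each), a difference of 0.22 (exact p = 0.0857, adjusted p = 0.514). For Lcn2 it was 0.12 (exact p = 0.114, adjusted p = 0.514). The other 7 differences lay between -0.07 (Camp and Chil3) and 0.09 (Retnlg). With 4 libraries a group, these p-values do not show that the ratios were equal.

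**Figure D3:**
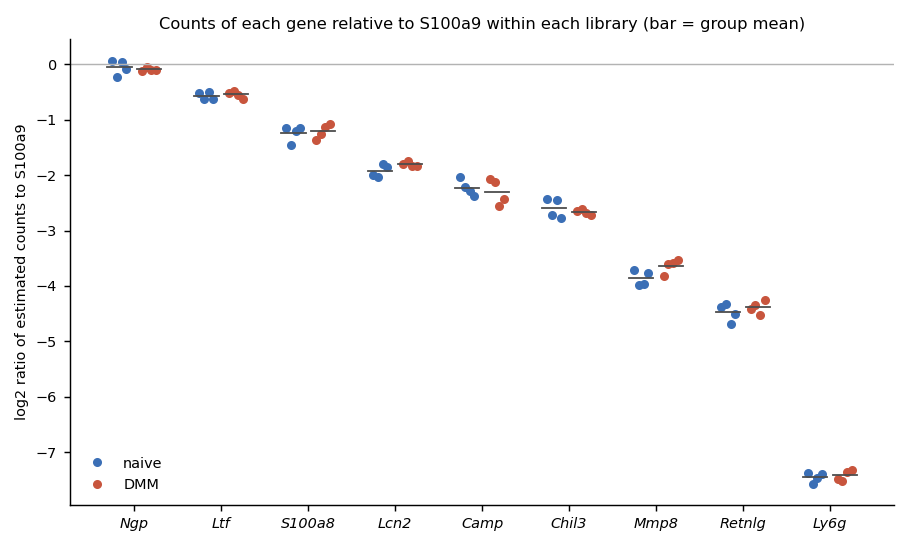
Log2 ratio of the estimated counts of each gene to those of S100a9 within a library (y axis, 0 = equal counts), with 4 naive and 4 DMM libraries per gene and a bar at each group mean. The groups lie on top of each other for most genes, and the largest difference of means is 0.22 for Mmp8.

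Levels of different genes were compared per kilobase of the longest annotated protein-coding transcript, as normalised counts per kilobase. In naive libraries S100a9 was the highest at 75357 ± 15847, followed by S100a8 at 33843 ± 4383 and Ngp at 30906 ± 5719 (SD, n = 4 each). The lowest S100a9 library, at 56557, was above the highest S100a8 library, at 36982, whereas S100a8 and Ngp overlapped. Lcn2 (11243 ± 2049), Camp (11121 ± 2709) and Ltf (9653 ± 2047) did not differ beyond their spread. Chil3 (4247 ± 986) and Retnlg (2992 ± 819) overlapped as well, Mmp8 was at 1103 ± 161, and Ly6g was the lowest at 235 ± 36.5. In DMM libraries the means were 41969 for S100a9, 19881 for S100a8 and 16768 for Ngp, and 136 for Ly6g.

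The genes of the earlier, azurophil granules were lower in DMM as well. All 6 of that list with an adjusted p were called lower (median log2 fold change -1.07), against the 5.92% of all genes, and Bpi had too few counts for one. Mpo, myeloperoxidase, had 17322, 20106, 21094 and 19034 normalised counts in naive and 6396, 6613, 9537 and 14465 in DMM libraries. It fell by 1.07 (log2, SE 0.23, adjusted p = 6.14e-05). Elane, neutrophil elastase, fell by 0.97 (SE 0.22, adjusted p = 0.000238), Prtn3, proteinase 3, by 1.07 (SE 0.15, adjusted p = 3.49e-10) and Ctsg, cathepsin G, by 1.12 (SE 0.22, adjusted p = 8.51e-06). Unlike for the late genes, the summed azurophil count in naive 4 was not the lowest of the naive group (24903.8, against 23066.7 in naive 1), and DMM 4 (18990.9) was above DMM 3 (12725.2). The summed late genes were 6.42, 6.49, 5.92 and 4.46 times the summed azurophil genes in naive libraries and 5.89, 7.89, 8.49 and 5.46 times in DMM libraries, so this ratio overlapped between the groups.

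Of 18 other secondary and tertiary granule genes, 9 were called lower, 1 higher and 8 were not called. The 9 became 4 with the total count as size factor and 5 without DMM 1. Those called lower included Cybb, the membrane subunit of the NADPH oxidase (log2 fold change -0.69, SE 0.16, adjusted p = 0.000256), Itgam, the integrin alpha chain CD11b (-0.68, SE 0.16, adjusted p = 0.000524), and Fcnb, ficolin B (-0.89, SE 0.21, adjusted p = 0.000255). Mmp9, the gelatinase of tertiary granules, which osteoclasts also make, had 7372, 9058.5, 5792 and 7008 normalised counts in naive and 8934, 5289, 7098 and 9128 in DMM libraries, with a log2 fold change of 0.06 (SE 0.19, adjusted p = 0.873) that was above 0 in 13 and below 0 in 3 of the 16 fits. The gene called higher was Chil1, at 0.72 (SE 0.24, adjusted p = 0.0171), which chondrocytes also make and which is named here after its value was seen. Chil1 was called in 12 of the 16 fits, and not by edgeR or limma-voom or without naive 1 or DMM 3.

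Of 30 genes for the surface and cytosol of the mature neutrophil, 26 had an adjusted p, of which 11 were called lower, 1 higher and 14 were not called, with a median log2 fold change of -0.57. The 11 became 2 with the total count as size factor, 5 without naive 2 or without DMM 1, 7 without naive 1 and 17 without DMM 4. Mxd1, a MYC antagonist of maturing cells (-0.69, SE 0.18, adjusted p = 0.00138), Ncf1, an oxidase subunit (-0.66, SE 0.16, adjusted p = 0.0005), and Alox5ap, which activates 5-lipoxygenase (-0.71, SE 0.16, adjusted p = 0.000129), fell. Anxa1, annexin A1, had a log2 fold change of -0.51 (SE 0.18, adjusted p = 0.0294), short of 1.5-fold. The gene called higher was Ptgs2, the inducible cyclooxygenase, which many cell types express: 19.4 to 30.6 normalised counts in naive and 89.7 to 212 in DMM libraries, a log2 fold change of 2.60 (SE 0.32, adjusted p = 7.1e-13).

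Among 9 transcription factors of granulopoiesis, 2 were called lower and 0 higher. Cebpe, which encodes C/EBPε, had 345, 609, 463 and 332 normalised counts in naive and 144, 230.0, 258 and 215 in DMM libraries, and fell by 1.05 (log2, SE 0.23, adjusted p = 0.000139). The other was Klf5, at -0.65 (SE 0.20, adjusted p = 0.00991), named after its value was seen. Cebpe was called in all 16 fits and Klf5 in 13, its call being lost with the total count as size factor and without naive 2 or DMM 1. Spi1, which encodes PU.1 and is shared by neutrophils, monocytes and B cells, was at -0.49 (SE 0.13, adjusted p = 0.00275), Irf8, a factor of the monocyte branch, at -0.44 (SE 0.14, adjusted p = 0.0144) and Runx1 at 0.34 (SE 0.09, adjusted p = 0.00183), each short of 1.5-fold.

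Of 5 receptors for the secreted products, 1 was called lower and 2 higher. Fpr2, a formyl peptide receptor on neutrophils that also binds cathelicidin peptides, was the one called lower, at -0.68 (log2, SE 0.25, adjusted p = 0.0363), but in only 7 of the 16 fits. The call was lost with edgeR, limma-voom, the total count as size factor, no independent filtering or the replicate block, and without naive 1, naive 2, DMM 1 or DMM 2. Lrp1, a lactoferrin receptor that many stromal cells express, rose by 0.67 (SE 0.17, adjusted p = 0.00137), and Slc22a17, a lipocalin-2 receptor, by 0.79 (SE 0.19, adjusted p = 0.000437). Slc22a17 was called in all 16 fits and Lrp1 in 15, the exception being the fit without naive 1. Tlr4, a receptor for S100a8 and S100a9, was at 0.11 (SE 0.12, adjusted p = 0.572).

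**Figure D4:**
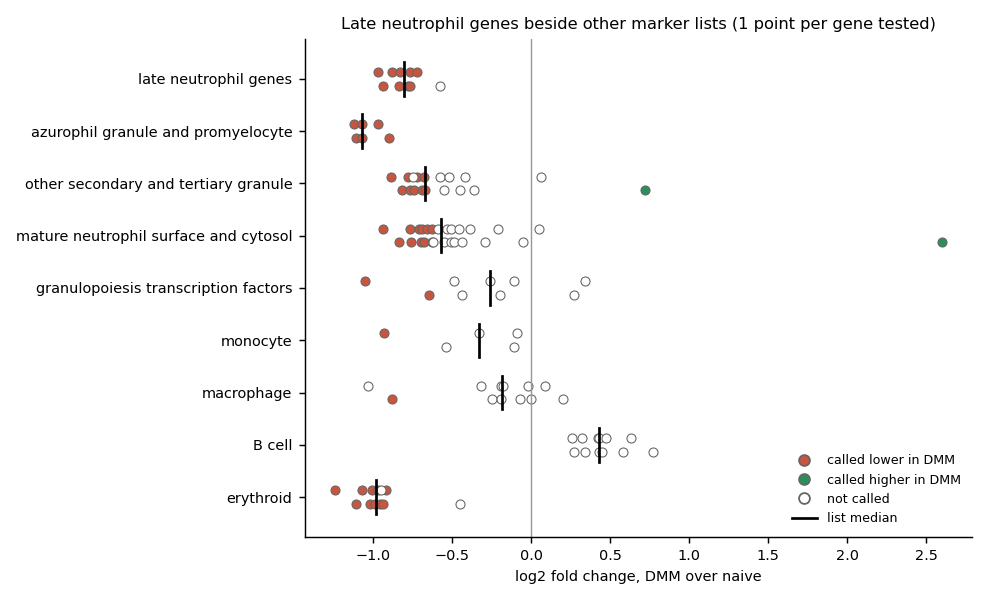
Log2 fold change (DMM over naive, x axis) of every gene with an adjusted p in the late neutrophil group and 8 other marker lists, 1 point per gene, filled where called, with a bar at the list median. The late neutrophil genes lie between -0.97 and -0.58, near the azurophil (median -1.07) and erythroid (median -0.98) lists, and the B cell list lies above 0 with no gene called in this fit.

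Markers of the other cells of bone marrow were set beside the late neutrophil genes. Of 12 erythroid genes, 10 were called lower, against 5.92% of all genes tested. The 10 became 8 with the replicate block and without naive 1, DMM 1 or DMM 4, and 12 without DMM 3. The summed normalised count of the erythroid genes was 162744.1 to 314147.1 in naive and 84094.3 to 179377.7 in DMM libraries. DMM 3 was the highest DMM library for the erythroid sum, as for the late neutrophil sum, but DMM 4 was not near it (91329.1). Of 12 B cell genes, 0 were called by DESeq2, edgeR or limma-voom, and 2 (Igll1 and Ebf1, both higher) had an unadjusted DESeq2 p under 0.05. DESeq2 called 1 of them higher with the total count as size factor, 1 without naive 2 and 2 without DMM 3, and the list's median log2 fold change of 0.43 was 0.17 without DMM 2. Their summed count was 4107.9 to 6484.2 in naive and 4844.7 to 10763.9 in DMM libraries, highest in DMM 1 and DMM 2, the libraries in which the late neutrophil genes were lowest. Of 12 macrophage genes 1 (Cd163) and of 5 monocyte genes 1 (Ly6c2) were called lower, with 0 called higher, and 2 monocyte genes were called lower without DMM 4. The macrophage sum was 8061.2 to 9489.5 in naive and 7066.8 to 8911.7 in DMM libraries. Of 7 osteoclast genes 1 (Ocstamp) was called higher and 0 lower. These counts were 4 and 0 with the total count as size factor, 4 and 1 without naive 4, 3 and 0 without DMM 2, and 1 and 1 without naive 3. Keratinocytes also make S100a8 and S100a9, and the 8 keratinocyte genes summed to 22.9 to 34.2 normalised counts in naive and 42.0 to 59.6 in DMM libraries. No list had a defining marker at 0 in all libraries, but some markers were near absent. The keratinocyte genes Krt5, Krt14, Krt1, Ivl and Dsg3 stayed under 10 estimated counts in every library. So did Bpi, Stfa1, Stfa3 and Matn1 of other lists. Krt5 was at 0 in all naive libraries. The part of marrow content in the change of the late neutrophil genes was not tested.

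**Figure D5:**
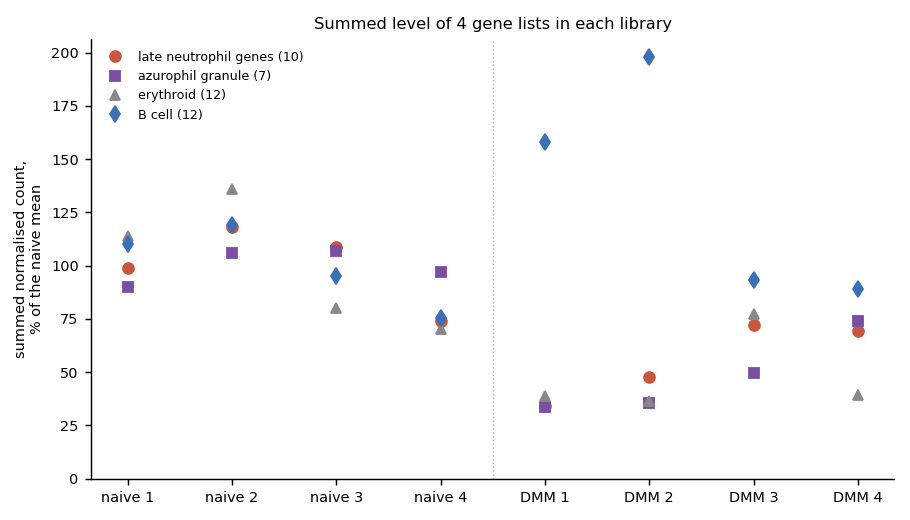
Summed normalised count of the late neutrophil, azurophil, erythroid and B cell lists in each library, as a percent of that list's naive mean (y axis, linear from 0). The late neutrophil genes stand at 74.1 to 118% in naive and 34.2 to 72.2% in DMM libraries, while the B cell list reaches 198% in DMM 2.

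Over the 8 libraries, the genes whose log2 level followed the mean of the 10 members most closely, among 11029 other genes averaging 100 or more normalised counts, were Igsf6 and Wfdc21 (Pearson r = 0.993 each), Cd177 and Itgb2l (0.992), Ipcef1 and Megf9 (0.991), and Tfdp1 and Prdx5 (0.990). Cd177, a neutrophil surface glycoprotein, Itgb2l, an integrin beta chain of neutrophils, and Wfdc21 are also on the list of other granule genes. Their log2 fold changes ran from -0.49 (Tfdp1) to -0.78 (Wfdc21). The members' own r to that mean was 0.957 (Camp) to 0.997 (S100a9). These are descriptions over 8 libraries that share the group difference, with no test.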

How the data were processed

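RNA was measured in 8 libraries, 4 naive and 4 DMM, grouped by their titles. The deposited table holds estimated counts per gene. The authors trimmed the reads with Trimmomatic, pseudo-aligned them with Kallisto and summed transcripts to genes with Tximport, and 39.2% of the values were therefore not whole. The methods name the mouse build GRCm38, the processing notes of the submitters name GRCh38, and the annotation release named belongs to a later mouse assembly, so the build is uncertain. The labels name an NEB low input kit and the methods a SMART-Seq kit. This difference was not resolved, and strandedness was not given in the sources used here. Coordinates come from GENCODE vM21 by gene identifier, upstream sequences from RefSeq (all 10 genes matched) and symbols for 48855 of 50462 identifiers from a reference table.

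Counts were rounded, without Tximport's length offsets, and tested in R version 4.3.3 with DESeq2, version 1.42.0 (Wald test, median-of-ratios size factors, no covariates, all 8 libraries, default filters, unshrunken log2 fold changes). The methods name the same tool and test, in an earlier version. Calls needed an adjusted p of 0.05 or less and a 1.5-fold change. P-values were adjusted over all 17760 genes tested. Ratios used a pseudocount of 0.5 and an exact permutation test over all 70 assignments, computed with NumPy version 2.4.6. Alternatives were edgeR version 4.0.16 (quasi-likelihood), limma-voom version 3.58.1, TMM and total count scaling, other filters, no fold threshold, the replicate number as a block and each library left out in turn. DESeq2, edgeR and limma-voom were first run on simulated counts with known changes, and the outcome of that run is not given here.

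The members, the marker lists (azurophil, other granule and mature neutrophil genes, transcription factors, receptors, erythroid, B cell, macrophage, monocyte, osteoclast, keratinocyte and chondrocyte genes) and the tests were chosen with earlier results of these data known. Named genes were all members and, in the neutrophil, factor and receptor lists, the 3 of highest mean and the 2 of smallest adjusted p, plus the 8 genes most correlated with the members. Bpi, Stfa1, Stfa3, Chil1, Klf5, Igll1, Ebf1, Cd163, Ly6c2, Ocstamp and the chondrocyte and keratinocyte genes named fall outside this rule. They were named after their values were seen. The precision of a value is set by 4 mice a group.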

Additional observations from a re-analysis of the deposited data

Results flagged for a closer look

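In 5 of 82 groups of 4 libraries, the highest or the lowest library stood far from the other 3 by Dixon's test, and chance alone flags about 4.1 of 82. For the oxidase subunit Cybb, naive 4 had 6105.8 normalised counts against 7845.1 to 8163.1 in the other naive libraries. Fcnb, ficolin B, had 1071.5 in naive 4 against 1349.6 to 1385.9. Naive 4 was also the lowest naive library for all 10 late neutrophil genes, none of which was flagged. The transcription factor Runx1 stood out in the other direction in naive 4, with 2191.7 against 1930.3 to 1962.3. Irf8, a factor of the monocyte branch, had 1351.3 in DMM 2 against 1043.8 to 1065.7 in the other DMM libraries. Among the members, the log2 ratio of Ngp to S100a9 was -0.041 in DMM 2 against -0.107 to -0.0985 in the other DMM libraries, a small distance in a tight group.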

How the results depend on the processing

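The 9 members called lower became 5 with edgeR's quasi-likelihood test and 5 with the total count as size factor, and ranged from 5 (without DMM 1) to 10 with each library left out in turn. Their median log2 fold change of -0.81 ranged from -0.647 to -0.86 under the other tests, scalings and filters and from -0.629 to -0.971 with a library left out. With the total count as size factor the median of all genes was 0.14, so the members' -0.647 is to be read against that. The 6 azurophil genes called lower stayed at 6 in every fit. The 9 other granule genes became 4 with the total count as size factor and ranged from 5 to 11 with a library left out. The 11 mature neutrophil genes became 2 with the total count as size factor and ranged from 5 to 17. The share of all genes called lower is given here only for the main fit. Whether these counts shifted more than that share did was not tested. No log2 fold change of a member reversed.

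The replicate number did not pair the samples: same-numbered libraries correlated at 0.0107, 0.0803, -0.181 and 0.0983 in their deviations from the group means, and not every library correlated best with its own number. With the replicate block 9 members were called, Mmp8 in (adjusted p = 0.0489) and Retnlg out (adjusted p = 0.161), along with 6 azurophil, 9 other granule and 8 mature neutrophil genes.

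No ratio to S100a9 passed with S100a8 or the geometric mean of the other 9 members as reference or with a pseudocount of 5. With S100a8 as reference the Mmp8 ratio reached an exact p of 0.0286, the smallest the test can give (adjusted p = 0.257). With a library left out that test cannot go below 0.0571. The difference in the share of all counts, -0.373 percentage points, was -0.502 without the top gene in the total and -0.522 over genes with a symbol, and -0.291 to -0.448 with a library left out. With 4 mice a group and Ly6g at 90 to 254 counts a library, calls near the threshold (S100a8, Lcn2, Retnlg, Ly6g and Mmp8) depended on the test or on 1 library.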
